A study of Mus musculus with 45 samples.

Results

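The late phase of 2 adherent differentiation protocols was compared in 7 of the 45 strand-specific RNA-seq libraries of the series. The libraries were taken by their labels, as the 3 FA libraries and the 4 N2B27 libraries of days 5 and 7. Earlier results of these data were known when this choice was made, and all genes were examined. All 7 libraries came from male E14tg2a embryonic stem cells (ESCs) of wild-type 129/Ola background. The groups were labelled by culture condition, and their libraries also differed in starting medium and day. FA cells grew in the serum-free medium N2B27 with Fgf2 and Activin A, are labelled as differentiating into EpiSCs, and were taken at day 7 from 2iL and at days 5 and 7 from SL. N2B27 cells grew in the same medium without these factors, are labelled as differentiating into neural cells, and were taken at days 5 and 7 from each starting medium. 2iL is N2B27 with the inhibitors CHIR99021 and PD0325901 and LIF, and SL is serum with LIF. From 2iL, the labels give the FA course and the N2B27 course a day 0 library each. Culture condition and separate course therefore cannot be told apart for cells from 2iL. FA from 2iL at day 5 was not among the 45 libraries. There was 1 library for each combination of medium, condition and day, and the labels give no repeat of a culture, so the p-values below measure the spread between these libraries. The results therefore hold for 1 male ESC line, and the N2B27 group has a library (2iL, day 5) with no FA counterpart.

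EpiSCs are the in vitro counterpart of the post-implantation epiblast and are kept in the primed pluripotent state by Activin A, which signals through SMAD proteins like its relative Nodal, and by Fgf2, which signals through the kinase ERK. Nodal signalling feeds back on itself: the ligand, its co-receptor and its secreted inhibitors of the Lefty family are all targets of the pathway. Without these ligands, ESCs in N2B27 lose pluripotency and many of them adopt a neural fate, first as Sox1-positive progenitors and then as neurons, while part of a culture can take other fates.

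Between 13577463 and 19031786 reads per library (median 17437550) were counted on genes, and a count of 3 reads corresponded to 0.158 to 0.221 CPM (the count scaled to the library total). This level is used below as the detection floor, and it covers counting error only. CPM values for single genes are scaled by TMM over the 7 libraries. The Pearson correlations between pairs of libraries, across genes, lay between 0.898 and 0.982, and every pair differed by at least 16.0 times the counting noise, so no library was a copy of another. Transcripts of cytosolic ribosomal proteins took 4.39% to 4.45% of the reads in FA and 2.87% to 3.47% in N2B27, and the 10 most abundant genes took 11.9% to 17.2% in FA and 18.4% to 22.7% in N2B27. At day 0 from 2iL, the libraries of the FA and N2B27 courses differed, at 5.59% and 4.97% for ribosomal proteins. The 10 most abundant genes took 9.15% and 16.2% of the reads in these day 0 libraries. In the day 0 library of the embryoid body course from 2iL, not compared here, the shares were 4.55% and 9.79%.

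The labelled cell types were checked with marker lists. The 5 EpiSC markers (Pou5f1, Nanog, Fgf5, Otx2, Dnmt3b) summed to 824 to 1041 CPM in FA and to 156 to 445 CPM in N2B27, and all 5 were higher in FA. The label of the FA cells thus matched their markers, while N2B27 cells still carried EpiSC marker transcripts, mainly of Dnmt3b. In N2B27, Dnmt3b alone was at 127 and 230 CPM from 2iL and at 182 and 295 CPM from SL (days 5 and 7). The 5 neural progenitor markers (Sox1, Pax6, Nes, Hes5, Fabp7) summed to 267 to 608 CPM in N2B27 and to 157 to 348 CPM in FA, with overlapping groups. Only Hes5 of these 5 passed the test, so the neural markers alone did not set the groups apart. The 5 extraembryonic endoderm markers (Gata4, Gata6, Sox7, Afp, Cubn), which none of the labels mention, summed to 918 to 2097 CPM in N2B27 and to 54.8 to 226 CPM in FA, and 4 of the 5 were lower in FA. Most of each of these sums came from Cubn, such as 835 of 918 CPM in N2B27 from 2iL at day 5. In bulk RNA, fewer cells of a type and less RNA per cell cannot be told apart. Blood and endothelial markers summed to 12.7 to 27.02 CPM in N2B27 and to 3.36 to 11.7 CPM in FA. Markers of heart, neural crest and surface ectoderm stayed at or below 9.83 CPM in every library. The sums overlapped between the groups for the neuronal list, at 69.8 to 203 CPM in FA and 68.2 to 435 CPM in N2B27. The same was true of the list for primitive streak, mesoderm and definitive endoderm, at 25.8 to 102 CPM in FA and 42.2 to 122 CPM in N2B27.

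To determine which genes distinguish the late FA cells from the late N2B27 cells, edgeR's quasi-likelihood test was fitted over 14610 genes with day as a covariate. At an adjusted p of 0.05, 2742 genes (18.8% of those tested) were called, of which 1366 (9.35%) were higher in FA and 1376 (9.42%) were lower. The CPM of FA and N2B27 libraries did not overlap for 2451 of the called genes. Changes of at least 4-fold were more often decreases, with 367 genes lower and 203 genes higher in FA. The median log2 difference (FA minus N2B27) over all tested genes was -0.0018. The count depended on single libraries: it was 585 without N2B27 from 2iL at day 7, 896 without FA from SL at day 7, 912 without N2B27 from SL at day 5 and 1387 without N2B27 from SL at day 7. The gene groups below are therefore given with the number of calls that held with each of the 7 libraries left out in turn. Of the 252 called genes of the lists and the naming rule, 71 held in this way. This was not counted over all 2742 called genes, and the naming rule favoured large differences. These numbers therefore do not show whether a group was steadier than called genes in general.

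**Figure D1:**
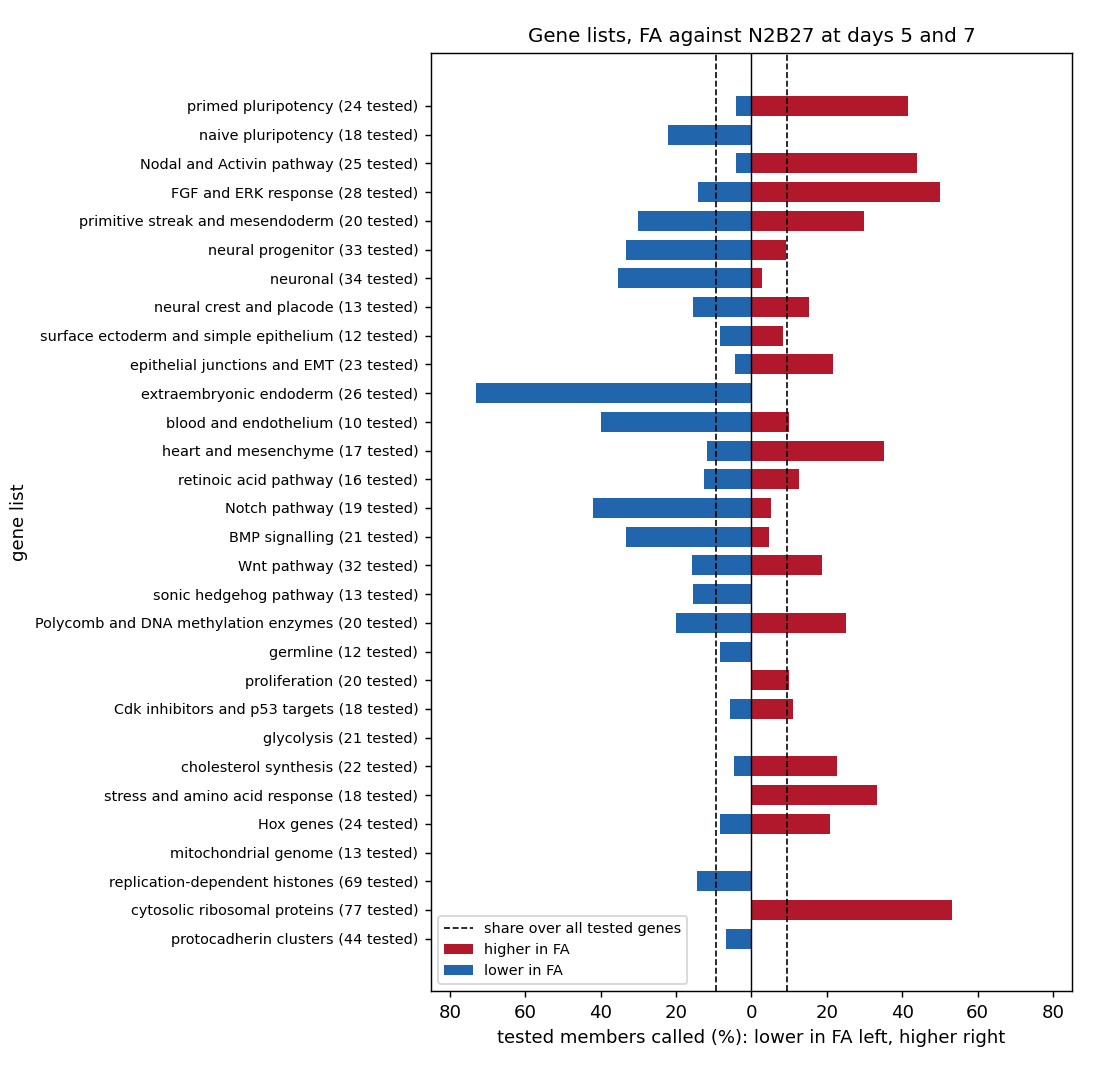
Share of the tested members of each gene list (percent, horizontal axis) that was lower in FA (blue, to the left) or higher in FA (red, to the right), with dashed lines at the shares over all tested genes, 9.42% lower and 9.35% higher. The longest blue bar belongs to extraembryonic endoderm, with 19 of 26 genes lower in FA, and the longest red bars to cytosolic ribosomal proteins (41 of 77) and the FGF and ERK response (14 of 28).

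Genes of primed pluripotency were among those higher in FA. Of the 24 tested genes of this list, 10 were higher (41.7%, beside 9.35% of all genes). Another (Sox3) was lower, and 13 did not pass the test. The median log2 difference was 1.29 against -0.0018 over all genes. Nanog, a homeodomain factor of the pluripotency network, measured 197, 87.0 and 205 CPM in FA (2iL day 7, SL day 5, SL day 7, the order used for FA throughout) and 5.93, 13.0, 18.0 and 29.1 CPM in N2B27 (2iL day 5, 2iL day 7, SL day 5, SL day 7, the order used for N2B27 throughout). All FA libraries exceeded all N2B27 libraries, and FA was 8.59-fold higher (log2 difference 3.10 ± 0.42 SE, edgeR adjusted p = 0.00746). Trh, the thyrotropin-releasing hormone precursor, was at 130, 200 and 265 CPM in FA and at 11.6, 27.6, 18.5 and 37.5 CPM in N2B27. It was 8.40-fold higher in FA (log2 3.07 ± 0.36 SE, edgeR adjusted p = 0.00547), again without overlap. Pou5f1, which encodes Oct4, was at 164, 252 and 216 CPM in FA and at 18.7, 55.7, 54.6 and 100 CPM in N2B27. The groups stood apart by 3.77-fold (log2 1.91 ± 0.47 SE, edgeR adjusted p = 0.0347), and the lowest N2B27 level was at day 5 from 2iL. Fgf5, a ligand that marks the post-implantation epiblast, was at 23.3, 48.4 and 27.4 CPM in FA and at 1.06, 2.73, 2.33 and 6.68 CPM in N2B27, a 10.8-fold difference (log2 3.43 ± 0.58 SE, edgeR adjusted p = 0.0128).

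Otx2, a homeodomain factor of the epiblast and anterior brain, was higher in FA by a log2 difference of 2.16, Dnmt3b, a de novo DNA methyltransferase, by 1.18, and Zic2, a zinc finger factor of the primed state, by 1.39. Sox3, a SoxB1 factor shared with neural progenitors, was the list member lower in FA, at 6.62, 6.12 and 7.13 CPM against 40.5, 20.1, 20.9 and 12.0 CPM. Its paralogue Sox2 was at 76.9, 66.8 and 69.7 CPM in FA and at 154, 87.7, 106 and 79.1 CPM in N2B27, and its log2 difference of -0.49 ± 0.21 SE did not pass the test (edgeR adjusted p = 0.146). Nanog, Zic2 and Trh remained called with each library left out. Pou5f1 missed the threshold without any of FA SL day 5, FA SL day 7, N2B27 2iL day 7 or N2B27 SL day 5 (edgeR adjusted p up to 0.123). The same 4 libraries carried the call of Otx2 (up to 0.110), and also, with FA 2iL day 7, that of Dnmt3b (up to 0.119). With libraries blocked by starting medium and day, both calls were lost (edgeR adjusted p 0.0513 for Otx2 and 0.0807 for Dnmt3b). Without N2B27 2iL day 7 or N2B27 SL day 5, the adjusted p of Fgf5 was 0.0609 and 0.0543, and Sox3 was lost without any library but N2B27 2iL day 5 and N2B27 SL day 7 (up to 0.113).

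Genes of naive pluripotency were not higher in FA. Of 18 tested genes, 4 were lower in FA (22.2%, beside 9.42% of all genes) and none was higher. The median log2 difference was -0.11. Lifr, the receptor subunit for LIF, was at 41.8, 37.0 and 33.7 CPM in FA and at 168, 362, 213 and 374 CPM in N2B27. It was 7.50-fold lower in FA (log2 -2.91 ± 0.23 SE, edgeR adjusted p = 0.00317) and kept its call in all leave-outs. Klf4, a Krüppel-like factor of the naive network, was at 1.66, 3.85 and 2.55 CPM in FA and at 7.39, 23.3, 19.0 and 31.3 CPM in N2B27. Tbx3 and Tcl1, which encode a T-box factor and an AKT co-activator, were also lower in FA (log2 -2.06 and -1.39). Klf4 was lost without FA SL day 7, N2B27 2iL day 7 or N2B27 SL day 5 (edgeR adjusted p 0.0761, 0.0625 and 0.0594), Tbx3 without either of the first 2 of these (0.0554 and 0.0519), and Tcl1 without any library but N2B27 2iL day 5 (up to 0.125). The extraembryonic endoderm markers moved in the same direction as these 4 genes, and their part in this result was not tested.

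**Figure D2:**
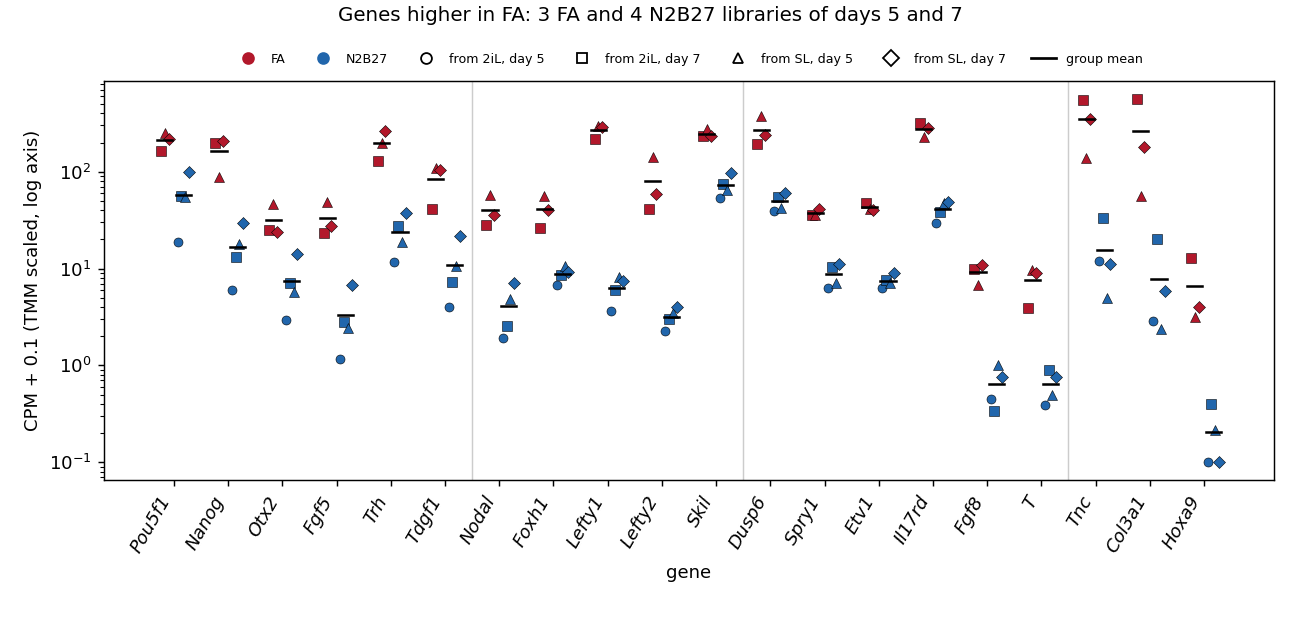
CPM + 0.1 (log axis) of 20 genes that were higher in FA, 1 symbol a library, in red for the 3 FA and blue for the 4 N2B27 libraries, with symbol shapes for starting medium and day and black lines for group means. Grey lines separate pluripotency genes, the Nodal pathway, FGF targets with T, and matrix genes with Hoxa9. No blue symbol reaches the red symbols of the same gene.

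Several genes of the Nodal and Activin pathway were higher in FA. Of 25 tested genes, 11 were higher (44%, beside 9.35% of all genes), 1 was lower and 13 did not pass the test. Of the 11, 5 (Nodal, Foxh1, Lefty1, Lefty2, Skil) were called with each of the 7 libraries left out. Nodal itself (chr10:61417972-61425338, positive strand, GRCm38), the ligand of the epiblast, was at 27.9, 57.0 and 35.5 CPM in FA and at 1.82, 2.48, 4.78 and 7.05 CPM in N2B27, a difference of 10.0-fold (log2 3.32 ± 0.49 SE, edgeR adjusted p = 0.00924). Tdgf1, the co-receptor Cripto, was at 40.9, 108 and 103 CPM in FA and at 3.93, 7.09, 10.5 and 21.6 CPM in N2B27, a difference of 7.95-fold. Foxh1, the DNA-binding partner of SMAD2 and SMAD3, was at 25.8, 55.7 and 40.3 CPM in FA and at 6.63, 8.48, 10.6 and 9.13 CPM in N2B27. It was 4.71-fold higher in FA (log2 2.23 ± 0.26 SE, edgeR adjusted p = 0.00534).

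The secreted inhibitors of Nodal were higher in FA as well. Lefty1 (chr1:180935022-180938400, positive strand) was at 215, 300 and 291 CPM in FA and at 3.52, 5.94, 8.07 and 7.27 CPM in N2B27. The lowest FA library was thus far above the highest N2B27 library, and the difference was 43.4-fold (log2 5.44 ± 0.31 SE, edgeR adjusted p = 0.00122). Lefty2, its neighbour on the same chromosome (chr1:180893108-180899103, positive strand), was at 41.5, 142 and 58.9 CPM in FA and at 2.17, 2.91, 3.35 and 3.93 CPM in N2B27, a difference of 25.4-fold. Lefty1 and Lefty2 are close paralogues, so reads from shared sequence could be split between them by the counting. Cer1, an inhibitor of Nodal and BMP ligands, was at 1.70, 18.1 and 4.11 CPM in FA, while N2B27 had 0.117, 0, 0 and 0.297 CPM. In N2B27 Cer1 was therefore at or near the detection floor, and its fitted log2 difference of 6.29 ± 1.03 SE (edgeR adjusted p = 0.0115) rests on those low values. The intracellular regulators Skil (log2 1.75) and Smad7 (1.30) and the ligand Gdf3 (1.72) were also higher in FA. Among these, Cer1 missed the threshold without N2B27 2iL day 7 (edgeR adjusted p = 0.0519), and Gdf3 without N2B27 2iL day 7 or N2B27 SL day 5 (0.0617 and 0.0532). Tdgf1 was lost without FA SL day 5, FA SL day 7, N2B27 2iL day 7 or N2B27 SL day 5 (up to 0.0801), and Smad7 without any library but FA 2iL day 7 (up to 0.183) and with the block of starting medium and day (0.0967).

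Because these Nodal pathway genes were higher together, the 250 bases upstream of their start sites were searched on both strands for AATNNACA, the letters of the FOXH1 motif. Promoters were taken from the RefSeq table for GRCm38.p6, which held 4 of the 11 pathway genes higher in FA, and 1 of them (Tdgf1) had a match. Of all 32851 promoters of this length, 10.9% had one. Of the 10 primed genes higher in FA, 8 were in the table and 3 (Nanog, Otx2, Tdgf1) had a match. Those of Nanog are a pair on opposite strands that overlap each other. The sequences of Nanog (chr6:122707239-122707488, positive strand) and Tdgf1 (chr9:110946159-110946408, negative strand) are shown 5′ to 3′ up to the start site as examples of primed genes that carry these letters, which are in capitals. A match is a description of the sequence and not evidence of a bound site.
Nanog: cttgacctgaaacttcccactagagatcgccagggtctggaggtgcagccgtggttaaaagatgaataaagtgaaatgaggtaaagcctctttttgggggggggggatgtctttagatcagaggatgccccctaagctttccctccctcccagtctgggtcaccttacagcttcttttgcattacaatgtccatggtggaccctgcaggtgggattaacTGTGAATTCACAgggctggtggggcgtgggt
Tdgf1: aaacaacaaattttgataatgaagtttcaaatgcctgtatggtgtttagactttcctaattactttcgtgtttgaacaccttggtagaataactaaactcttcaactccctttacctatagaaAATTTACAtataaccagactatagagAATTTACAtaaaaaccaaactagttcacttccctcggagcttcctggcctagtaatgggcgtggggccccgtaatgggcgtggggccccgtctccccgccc

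FGF and ERK response genes differed in both directions, with more of them higher in FA. Of 28 tested genes, 14 were higher (50%, beside 9.35% of all genes) and 4 were lower (14.3%, beside 9.42%). The other 10 did not pass the test. The median log2 difference was 1.16, and 9 of the 14 were called with each library left out. Dusp6, a phosphatase that switches off ERK and is induced by it, was at 192, 372 and 242 CPM in FA and at 39.6, 54.9, 42.2 and 60.5 CPM in N2B27. Its difference was 5.44-fold (log2 2.44 ± 0.27 SE, edgeR adjusted p = 0.00475) without overlap. Other feedback inhibitors behaved alike: Il17rd, a membrane inhibitor of FGF receptors, was 6.53-fold higher (315, 230 and 282 CPM against 29.4, 38.3, 47.6 and 48.0 CPM), and Spry1 was 4.28-fold higher (36.0, 36.0 and 41.1 CPM against 6.16, 10.2, 6.94 and 11.1 CPM). Spry2, Spry4 and Spred1, of the same inhibitor family, were higher by log2 differences of 1.41, 1.96 and 0.90, and the phosphatase Dusp4 by 1.12.

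Of the ERK-induced Ets factors, Etv1 was at 47.4, 41.2 and 40.1 CPM in FA and at 6.16, 7.57, 7.05 and 8.91 CPM in N2B27. It had one of the smallest adjusted p-values among these genes (log2 2.5 ± 0.13 SE, edgeR adjusted p = 0.000849), with libraries of a group close to each other. Etv4 and Etv5 were higher by log2 2.48 and 1.48, and the immediate early gene Egr1 by 2.02. Of the ligands, Fgf8 was at 9.88, 6.60 and 10.9 CPM in FA and at 0.352, 0.242, 0.910 and 0.668 CPM in N2B27, a 16.2-fold difference. Fgf17, of the same subfamily, was at 1.75, 2.47 and 1.93 CPM in FA and at or near the detection floor in N2B27 (0.0569 to 0.242 CPM).

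The 4 genes of this list that were lower in FA were all receptors or a co-receptor. Fgfr3 (chr5:33721674-33737068, positive strand) was at 3.89, 2.75 and 6.40 CPM in FA and at 79.9, 82.4, 59.0 and 72.5 CPM in N2B27. It was 18.0-fold lower in FA (log2 -4.17 ± 0.27 SE, edgeR adjusted p = 0.0018) and kept its call in all leave-outs. Fgfr2 was lower by a smaller step, at 51.8, 59.6 and 40.7 CPM against 90.2, 101, 89.6 and 91.4 CPM (log2 -0.87), and Fgfr4 had a log2 difference of -2.81. Klb, the beta-Klotho co-receptor of endocrine FGFs, was at 2.87, 8.38 and 2.19 CPM against 22.4, 55.9, 50.9 and 43.9 CPM (log2 -3.34). Across the list, Fgfr2 was lost without N2B27 2iL day 7 (edgeR adjusted p = 0.0515), Klb without FA SL day 7 (0.0541), and Etv4, Etv5 and Spry4 without FA SL day 7, N2B27 2iL day 7 or N2B27 SL day 5 (up to 0.0688, 0.0718 and 0.0891). Fgfr4 was lost without any library but FA SL day 5 and N2B27 2iL day 5 (up to 0.135), and Dusp4 without any but FA 2iL day 7 (up to 0.102) and with the block of starting medium and day (also 0.102).

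Primitive streak and mesendoderm genes were split. Of 20 tested genes, 6 were higher and 6 were lower in FA (30% each, beside 9.35% and 9.42% of all genes). The median log2 difference was -0.03. T, the Brachyury factor of the streak (chr17:8434423-8442496, positive strand), was at 3.80, 9.55 and 8.95 CPM in FA and at 0.293, 0.788, 0.398 and 0.668 CPM in N2B27, a 13.8-fold difference (log2 3.78 ± 0.48 SE, edgeR adjusted p = 0.00639). T was low in every library, and its groups did not overlap. Eomes, a T-box factor of the streak and endoderm, was at 13.5, 59.4 and 9.53 CPM in FA and at 3.34, 5.03, 6.65 and 6.24 CPM in N2B27. The day 5 library was the high one (log2 2.16 ± 0.55 SE, edgeR adjusted p = 0.0396). Gsc, an organizer homeobox gene, followed the same pattern at lower levels, with 0.925, 5.64 and 1.41 CPM against at most 0.242 CPM. Wnt3, the ligand of the streak, was at 4.14, 11.3 and 7.81 CPM in FA and at 2.79 to 3.41 CPM in N2B27.

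The 6 genes lower in FA were Sox17, Gata4, Gata6, Cxcr4, Dkk1 and Snai1. The first 3 are shared with extraembryonic endoderm and are described with it below. Cxcr4, a chemokine receptor, was at 8.47, 7.97 and 5.83 CPM in FA and at 56.8, 33.1, 32.1 and 22.6 CPM in N2B27 (log2 -2.16 ± 0.29 SE, edgeR adjusted p = 0.00743). Foxa2, a forkhead factor of endoderm and floor plate, was at 4.77, 16.5 and 7.29 CPM in FA and at 15.5, 53.6, 33.8 and 57.0 CPM in N2B27, and its log2 difference of -2.06 ± 0.61 SE missed the threshold (edgeR adjusted p = 0.0577). Foxa2 was called in 9 of 16 alternative fits, among them the day 7 libraries alone (log2 -3.23, edgeR adjusted p = 3.41e-05) and the block of starting medium and day (0.0363), and its log2 difference ranged from -3.23 to -1.59. T, Fgf8, Sox17 and Cxcr4 were called with each library left out. Eomes was lost without any library but N2B27 2iL day 5 (up to 0.128). Wnt3 was lost without any but FA 2iL day 7 and N2B27 SL day 7 (up to 0.115), and Dkk1 and Snai1 without any but FA SL day 5 and N2B27 2iL day 5 (up to 0.108 and 0.0984). Gsc missed the threshold without FA SL day 5 or N2B27 SL day 5 (0.0520 and 0.0528). The block ended the calls of Eomes (0.0793) and Wnt3 (0.0618).

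Extraembryonic endoderm genes were lower in FA. Of 26 tested genes, 19 were lower (73.1%, beside 9.42% of all genes) and none was higher in FA. The median log2 difference was -3.46, and 8 of the 19 (Sox17, Ttr, Cubn, Lama1, Col4a2, Sparc, Pth1r, Cited1) held with each library left out. In the embryo these genes mark parietal and visceral endoderm, the tissues that lay down basement membrane and take up and carry nutrients. Sox17 (chr1:4490931-4497354, negative strand), an endoderm factor, was at 2.34, 3.30 and 2.499 CPM in FA and at 22.9, 62.0, 54.1 and 56.1 CPM in N2B27. The difference was 18.3-fold (log2 -4.19 ± 0.40 SE, edgeR adjusted p = 0.00352). Gata6, which drives the primitive endoderm fate, was at 3.26, 11.1 and 4.43 CPM in FA and at 38.8, 104, 84.3 and 111 CPM in N2B27 (log2 -3.78), and Gata4 was at 3.70, 10.996 and 4.95 CPM against 32.6, 116, 69.5 and 108 CPM (log2 -3.62). In both groups the day 5 libraries differed from the others: N2B27 from 2iL at day 5 was the lowest N2B27 library, and FA from SL at day 5 was the highest FA library.

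Structural genes of the basement membrane took a larger share of the counts in N2B27. Lama1 (chr17:67697259-67822647, positive strand), the laminin alpha1 chain, was at 131, 162 and 117 CPM in FA and at 1517, 5093, 3559 and 5496 CPM in N2B27, a 28.0-fold difference (log2 -4.81 ± 0.47 SE, edgeR adjusted p = 0.00362). Lama1, Lamb1, Col4a1, Col4a2 and Sparc together took 0.105%, 0.164% and 0.134% of the scaled counts in FA. In N2B27 the same 5 genes took 0.621%, 2.32%, 1.54% and 2.54%. Cubn, the cubilin receptor of absorptive epithelia, was at 68.7, 191 and 43.1 CPM in FA and at 835, 1534, 1632 and 1797 CPM in N2B27 (log2 -3.95). Ttr, a thyroid hormone carrier secreted by visceral endoderm, was 23.5-fold lower in FA, at 1.46, 4.19 and 0.885 CPM against 17.3, 58.2, 50.5 and 73.8 CPM. The receptor Pth1r, which marks parietal endoderm, was at 8.86, 6.67 and 7.76 CPM against 56.6, 137, 142 and 166 CPM (log2 -4.07). Gata4, Gata6, Lamb1 and Col4a1 missed the threshold without FA SL day 7 (edgeR adjusted p 0.0628, 0.0544, 0.0530 and 0.0545). The 250 bases upstream of the start sites were searched for AGATAA, the letters of the GATA motif, on both strands. Of the 19 genes lower in FA, 12 were in the RefSeq table and 1 (Hnf4a) held the letters, against 9.99% of all 32851 promoters.

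The largest decreases in FA over all genes included genes outside this list, and the cell type they came from was not tested. Nepn, which encodes nephrocan (chr10:52388972-52404625, positive strand), was at 0.0487, 0.275 and 0.0521 CPM in FA and at 10.7, 49.8, 38.7 and 62.9 CPM in N2B27 (log2 -8.54 ± 0.85 SE, edgeR adjusted p = 0.00362). Nepn was close to or below the detection floor in FA, so the size of this fitted difference is uncertain. The same holds for Enpep, an aminopeptidase (log2 -7.02), Ugt2b34, a glucuronosyltransferase (-6.53), and Serpinb9e, a serpin (-6.25). Ihh, the Indian hedgehog ligand, which visceral endoderm secretes, was at 0.341, 0.687 and 0.208 CPM in FA and at 9.68, 31.0, 31.9 and 43.6 CPM in N2B27 (log2 -6.22 ± 0.69 SE, edgeR adjusted p = 0.00485). F2, which encodes prothrombin, had a log2 difference of -5.53, Hs3st1, a heparan sulfate sulfotransferase, of -5.53, and Spns2, a sphingosine-1-phosphate transporter, of -5.33. Pdgfra, a receptor of primitive endoderm and of mesenchyme, was at 9.10, 7.70 and 4.17 CPM in FA and at 96.8, 269, 259 and 348 CPM in N2B27 (log2 -5.13 ± 0.53 SE, edgeR adjusted p = 0.00418). The endothelial cadherin Cdh5 was at 0.195, 0.550 and 0.312 CPM against 6.16, 16.5, 6.14 and 17.7 CPM (log2 -5.09). Cdh5 is itself part of the blood and endothelial sums given above. F2 missed the threshold without FA SL day 7 (edgeR adjusted p = 0.0628).

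**Figure D3:**
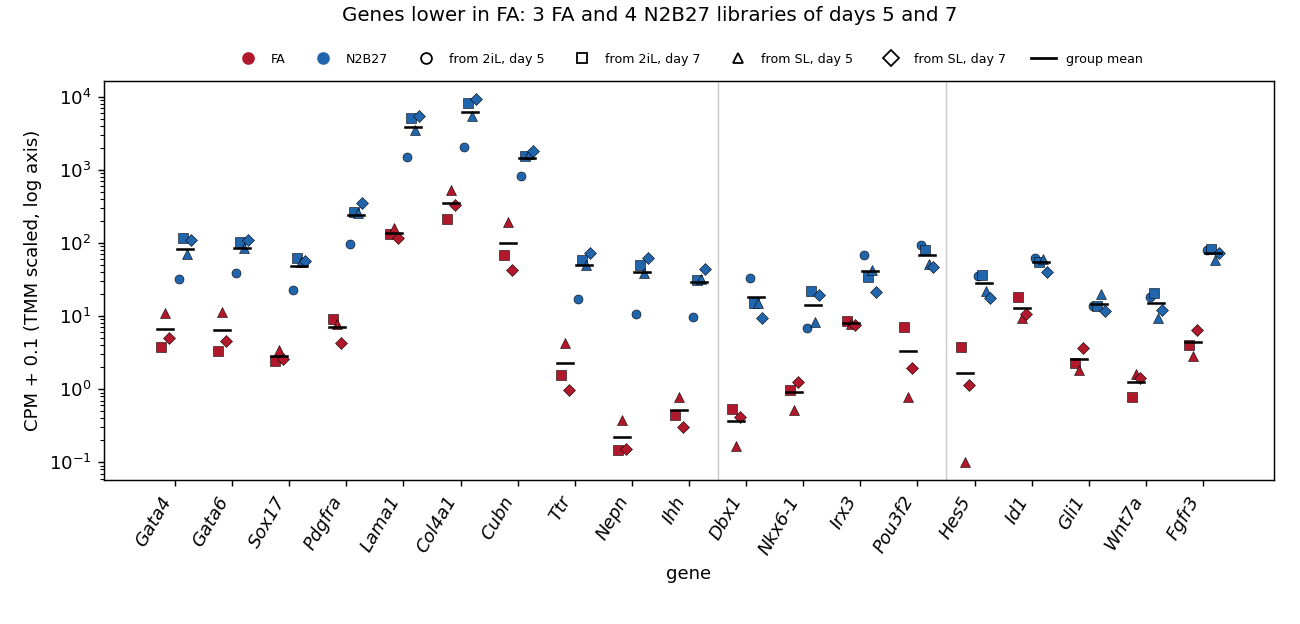
CPM + 0.1 (log axis) of 19 genes that were lower in FA, with symbols as for the genes higher in FA and black lines for group means. Grey lines separate endoderm and related genes, neural transcription factors, and signalling genes. The N2B27 library from 2iL at day 5 (blue circle) is the lowest N2B27 library for all 10 endoderm and related genes, and the highest for the neural factors Dbx1, Irx3 and Pou3f2.

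A subset of the neural progenitor genes was lower in FA. Of 33 tested genes, 11 were lower (33.3%, beside 9.42% of all genes) and 3 were higher in FA (9.09%, beside 9.35%). Gbx2 and En1 were among the higher genes, and the median log2 difference was -0.55. The general progenitor markers Sox1, Nes and Pax6 did not pass the test. Sox1 was at 66.1, 17.7 and 49.8 CPM in FA and at 105, 41.8, 69.1 and 26.7 CPM in N2B27, with a log2 difference of -0.26 ± 0.68 SE (edgeR adjusted p = 0.817) that turned to 0.76 in the day 7 libraries alone (edgeR adjusted p = 0.00424) and to 0.74 without FA SL day 5 (0.113). Nes, an intermediate filament of progenitors, was at 198, 135 and 194 CPM against 352, 260, 225 and 173 CPM (log2 -0.51 ± 0.28 SE, edgeR adjusted p = 0.235). Pax6, a homeodomain factor of neuroectoderm, was at 21.2, 3.02 and 10.7 CPM in FA and at 110, 49.9, 52.6 and 25.9 CPM in N2B27 without overlap, and its log2 difference of -2.31 ± 0.82 SE missed the threshold (edgeR adjusted p = 0.0942), which it passed in 2 of 16 alternative fits. Thus FA libraries contained Sox1, Nes and Sox2 transcripts at levels within or close to the N2B27 range.

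Several factors of regional progenitors passed the test. Dbx1, of the intermediate neural tube (chr7:49631499-49636849, negative strand), was at 0.438, 0.0687 and 0.312 CPM in FA and at 32.6, 15.1, 15.2 and 9.28 CPM in N2B27 (log2 -5.71 ± 0.63 SE, edgeR adjusted p = 0.00485). Nkx6-1, of the ventral neural tube, was at 0.876, 0.412 and 1.15 CPM against 6.81, 21.7, 8.24 and 19.2 CPM (log2 -4.29 ± 0.21 SE, edgeR adjusted p = 0.000849). Both kept their calls in all leave-outs. Irx3, of the caudal neural plate, was at 8.57, 7.70 and 7.55 CPM against 69.5, 34.0, 42.0 and 21.2 CPM (log2 -2.18). Olig2, of motor neuron and oligodendrocyte progenitors, had no read in any FA library and was at 0.528, 0.848, 2.39 and 1.19 CPM in N2B27, so no fold is given. Gbx2, which the epiblast also expresses, was higher in FA, at 12.3, 32.2 and 17.3 CPM against 8.86, 6.48, 8.02 and 4.68 CPM (log2 1.63 ± 0.21 SE, edgeR adjusted p = 0.00627). Irx3 was lost without N2B27 2iL day 7 (edgeR adjusted p = 0.0538), and Olig2 without FA SL day 7 (0.0676), while it was below the filter on low counts in 3 other leave-outs. En1, a midbrain and hindbrain factor (log2 1.42), was lost without any library but N2B27 2iL day 5 (up to 0.123).

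Among neuronal genes, 12 of 34 tested were lower in FA (35.3%, beside 9.42% of all genes) and 1 was higher. The median log2 difference was -1.92. Pou3f2 (Brn2), a proneural POU factor, was at 7.06, 0.687 and 1.82 CPM in FA and at 94.2, 80.7, 51.6 and 46.8 CPM in N2B27 (log2 -4.57 ± 0.76 SE, edgeR adjusted p = 0.0124). Within FA, the library from 2iL at day 7 had the highest level of this factor.

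Markers of differentiated neurons were spread widely within each group. Tubb3, the neuronal beta3 tubulin, was at 59.7, 17.6 and 26.4 CPM in FA and at 58.3, 211, 37.7 and 122 CPM in N2B27, with overlapping groups (log2 -1.75 ± 0.36 SE, edgeR adjusted p = 0.0217). Dcx, a microtubule protein of migrating neurons, was at 42.2, 0.962 and 2.76 CPM against 12.3, 122, 8.24 and 59.5 CPM and did not pass the test (log2 -2.37 ± 0.89 SE, edgeR adjusted p = 0.107), though it was called in 6 of 16 alternative fits, among them the block of starting medium and day (0.0374). The exception was Stmn2, a microtubule regulator of growing axons, which was higher in FA at 94.0, 48.5 and 144 CPM against 21.6, 66.0, 17.2 and 37.3 CPM (log2 1.25 ± 0.24 SE, edgeR adjusted p = 0.0177), with overlapping groups. Without FA SL day 7 or N2B27 2iL day 7, the calls of Pou3f2 (edgeR adjusted p 0.0537 and 0.0594) and Tubb3 (0.0506 and 0.0788) were lost. Stmn2 was lost without FA SL day 7 or N2B27 SL day 5 (0.0657 and 0.0578). The endoderm markers of the N2B27 libraries moved with these neural genes between the groups, and their part in the neural differences was not tested.

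The Notch and BMP lists had more genes lower than higher in FA. Of 19 Notch pathway genes, 8 were lower (42.1%, beside 9.42% of all genes) and 1 (Notch3) was higher. Hes5, the Notch effector of neural progenitors (chr4:154960923-154962371, positive strand), was at 3.65, 0 and 1.04 CPM in FA and at 34.9, 36.9, 22.1 and 17.4 CPM in N2B27 (log2 -4.35 ± 0.90 SE, edgeR adjusted p = 0.0221). The FA library from SL at day 5 had no Hes5 read. The ligand Dll1 was at 26.2, 8.45 and 14.99 CPM against 81.3, 86.9, 49.8 and 48.2 CPM (log2 -2.16), and the effector Hey1 (log2 -1.31) was the member called with each library left out. The receptor gene Notch3 was at 246, 227 and 333 CPM in FA and at 152, 141, 131 and 124 CPM in N2B27 (log2 0.95). Hes5 was lost without FA SL day 7, N2B27 2iL day 7 or N2B27 SL day 5 (edgeR adjusted p 0.0846, 0.0974 and 0.0613), Dll1 without either of the first 2 (0.0707 and 0.0845), and Notch3 without N2B27 2iL day 7 (0.0616).

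Of 21 BMP signalling genes, 7 were lower (33.3%, beside 9.42% of all genes) and 1 was higher in FA. The 4 Id genes, which encode inhibitors of bHLH factors and are BMP targets, were all lower. Id1 was at 18.4, 9.35 and 10.7 CPM in FA and at 62.7, 54.3, 60.6 and 40.01 CPM in N2B27 (log2 -2.08 ± 0.30 SE, edgeR adjusted p = 0.00884). Id2 was at 23.7, 14.1 and 17.5 CPM against 71.7, 60.2, 65.7 and 50.4 CPM (log2 -1.75), and Id3 and Id4 had log2 differences of -2.09 and -2.23. Id1 and Id2 kept their calls in all leave-outs, while Id3 and Id4 lost theirs without FA SL day 7 (edgeR adjusted p 0.0504 and 0.0544) or N2B27 2iL day 7 (0.0537 and 0.0879). Of 13 hedgehog pathway genes, 2 were lower in FA (15.4%, near the 9.42% of all genes), and these were the receptor Ptch1 and the factor Gli1, which the pathway induces. In the day 7 libraries alone, 5 genes of this list were higher and 6 were lower. Gli1 was at 2.19, 1.72 and 3.59 CPM in FA and at 13.4, 13.6, 19.8 and 11.6 CPM in N2B27 (log2 -2.52 ± 0.34 SE, edgeR adjusted p = 0.00729). Ptch1 was at 21.4, 12.4 and 38.0 CPM against 117, 93.2, 110 and 88.3 CPM (log2 -2.18) and was lost without N2B27 2iL day 7 (0.0515).

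The Wnt pathway and the retinoic acid pathway had genes in both directions. Of 32 tested Wnt genes, 6 were higher (18.8%) and 5 were lower (15.6%) in FA, beside 9.35% and 9.42% of all genes. Wnt8a, a ligand of the early epiblast and streak, was at 23.6, 35.9 and 17.2 CPM in FA and at 3.58, 4.85, 7.73 and 4.60 CPM in N2B27 (log2 2.34 ± 0.29 SE, edgeR adjusted p = 0.00597). Wnt7a, a ligand of neural tissue, was at 0.681, 1.51 and 1.30 CPM against 18.4, 20.7, 9.44 and 12.0 CPM (log2 -3.71 ± 0.43 SE, edgeR adjusted p = 0.00533). The receptor Fzd7 was lower in FA by 2.43-fold. Of 16 retinoic acid genes, 2 were higher and 2 were lower (12.5% each, near the shares over all genes). Dhrs3, which reduces retinaldehyde, was at 12.2, 19.3 and 19.4 CPM in FA and at 1.58, 3.94, 1.88 and 2.75 CPM in N2B27 (log2 2.74). Aldh1a1, which makes retinoic acid, and Cyp26b1, which degrades it, were lower in FA (log2 -2.74 and -3.70). Wnt8a, Wnt7a, Fzd7, Dhrs3 and Aldh1a1 held with each library left out, and Cyp26b1 was lost without N2B27 2iL day 7 (edgeR adjusted p = 0.0515).

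Several matrix genes of mesenchyme were higher in FA, while the receptor gene Pdgfra of the same list was lower. Of 17 tested heart and mesenchyme genes, 6 were higher (35.3%, beside 9.35% of all genes) and 2 were lower in FA (11.8%, beside 9.42%). Pdgfra (log2 -5.13, described above) had the largest difference of the list. Of the list's calls, those of Col3a1 and Postn (higher) and Pdgfra (lower) held with each library left out. The largest increases over all genes included several matrix genes. Col3a1, the collagen III chain (chr1:45311538-45349706, positive strand), was at 559, 56.6 and 180 CPM in FA and at 2.76, 19.9, 2.27 and 5.79 CPM in N2B27, a 26.2-fold difference (log2 4.71 ± 0.56 SE, edgeR adjusted p = 0.00556). AC125167.1, a microRNA gene that also met the naming rule (log2 4.83), lies within Col3a1 on the same strand (chr1:45311673-45311813), so its reads and those of Col3a1 cannot be told apart. Tnc, the matrix glycoprotein tenascin C (chr4:63959785-64047015, negative strand), was at 547, 139 and 352 CPM in FA and at 11.9, 33.4, 4.89 and 11.1 CPM in N2B27 (log2 4.22 ± 0.47 SE, edgeR adjusted p = 0.00497). In each of these genes the day 5 library was the lowest of FA and the 2iL day 7 library the highest. Col14a1, a fibril-associated collagen, was at 18.0, 5.22 and 13.3 CPM in FA and below the detection floor in N2B27 (0.0587 to 0.148 CPM). Bgn, the proteoglycan biglycan, was at 29.0, 13.3 and 38.6 CPM against 2.64, 2.91, 2.96 and 3.12 CPM (log2 3.004 ± 0.29 SE, edgeR adjusted p = 0.00352). Col1a2, a chain of collagen I, was higher by log2 2.27 and the receptor gene Pdgfrb by 1.21. Col1a2 was lost without N2B27 2iL day 7 (edgeR adjusted p = 0.0680) and Pdgfrb without FA SL day 7 or N2B27 2iL day 7 (0.0597 and 0.0671).

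Some Hox genes differed at low levels. Of 24 tested Hox genes, 5 were higher (20.8%, beside 9.35% of all genes) and 2 were lower (8.33%, near the 9.42% of all genes). Hoxa9 (chr6:52223100-52231089, negative strand), which patterns the trunk, was at 12.7, 3.09 and 3.96 CPM in FA and at 0, 0.303, 0.114 and 0 CPM in N2B27 (log2 5.60 ± 0.84 SE, edgeR adjusted p = 0.00942). Hoxb9 was at 7.45, 5.91 and 5.47 CPM against 1.70, 1.33, 0.967 and 0.445 CPM (log2 2.54), and Hoxa5, Hoxa7 and Hoxa10 were higher by log2 1.68, 1.32 and 2.46. The anterior genes Hoxb3 and Hoxb4, which pattern the hindbrain, were lower in FA (log2 -1.22 and -0.76). Hoxa9 and Hoxb9 held with each library left out. Hoxb3 was lost without N2B27 2iL day 7 (edgeR adjusted p = 0.0597) and Hoxa5 without that library, FA SL day 7, N2B27 SL day 5 or N2B27 SL day 7 (up to 0.103). Hoxa10 was lost without any library but FA SL day 7 (up to 0.133), and Hoxa7 and Hoxb4 without any library at all (up to 0.163 and 0.171). The block of starting medium and day ended the calls of Hoxa7, Hoxa10 and Hoxb4 (0.0697, 0.0770 and 0.0924).

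Some genes of the amino acid and integrated stress response were higher in FA. Of 18 tested genes of the stress list, 6 were higher (33.3%, beside 9.35% of all genes) and none was lower. The other 12 did not pass the test, and the median log2 difference was 0.71. Trib3, a pseudokinase induced by ATF4, was at 18.9, 28.8 and 35.5 CPM in FA and at 6.75, 5.51, 6.99 and 7.50 CPM in N2B27 (log2 2.07 ± 0.24 SE, edgeR adjusted p = 0.00533). Chac1, which degrades glutathione, was at 27.8, 11.8 and 55.0 CPM against 3.81, 4.91, 4.78 and 5.27 CPM (log2 2.44 ± 0.40 SE, edgeR adjusted p = 0.0124). Asns, the asparagine synthetase, was at 234, 174 and 440 CPM against 118, 83.6, 117 and 111 CPM (log2 1.33), Atf4 itself was higher by log2 1.04, and Shmt2, of mitochondrial one-carbon metabolism, by 0.94. The N2B27 libraries were close to each other for these genes, and FA from SL at day 7 was the highest library for each of the 5. Trib3 and Egr1, which this list shares with the ERK response, held with each library left out. Chac1 and Atf4 were lost without N2B27 2iL day 7 (edgeR adjusted p 0.0646 and 0.0672), Asns without any of FA SL day 7 and the N2B27 libraries 2iL day 7, SL day 5 and SL day 7 (up to 0.136), and Shmt2 without any library but FA SL day 5 (up to 0.166) and with the block of starting medium and day (0.0587).

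The same promoter window was searched for TGATGNAA, the core letters of the ATF4 response element, on both strands. Of the 6 stress genes higher in FA, 5 were in the RefSeq table (GRCm38.p6) and 2 of these (Asns, Chac1) held the letters, against 3.45% of all 32851 promoters. Both windows are given 5′ to 3′ up to the start site, Asns at chr6:7693210-7693459 on the negative strand and Chac1 at chr2:119350992-119351241 on the positive strand, as the genes of this list that carry the letters, which are in capitals. In Chac1 the match is on the opposite strand.
Asns: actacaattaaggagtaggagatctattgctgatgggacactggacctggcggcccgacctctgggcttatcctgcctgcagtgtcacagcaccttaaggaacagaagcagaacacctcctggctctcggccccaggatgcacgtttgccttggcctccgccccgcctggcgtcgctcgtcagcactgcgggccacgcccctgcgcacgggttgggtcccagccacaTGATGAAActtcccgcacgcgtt
Chac1: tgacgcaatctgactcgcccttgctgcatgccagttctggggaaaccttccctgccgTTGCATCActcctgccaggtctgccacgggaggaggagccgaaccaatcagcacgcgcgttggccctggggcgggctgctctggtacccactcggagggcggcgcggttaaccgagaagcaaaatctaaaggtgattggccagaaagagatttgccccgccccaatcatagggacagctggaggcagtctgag

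Many transcripts of cytosolic ribosomal proteins were higher in FA by a small step. Of 77 tested genes, 41 were higher (53.2%, beside 9.35% of all genes) and none was lower in FA. The median log2 difference was 0.36. Rpl7, of the large subunit, was at 1149.7, 1172 and 1134 CPM in FA and at 847, 698, 860 and 792 CPM in N2B27 (log2 0.55 ± 0.09 SE, edgeR adjusted p = 0.0119). None of these 41 calls held with each library left out: the number called ranged from 0 to 39 when 1 library was removed, and it was 12 with libraries blocked by starting medium and day. Of 69 replication-dependent histone genes, 10 were lower in FA (14.5%, beside 9.42% of all genes) and none was higher, with a median log2 difference of -0.45. The number of histone genes called lower was 1 with the block, 1 in the day 7 libraries alone and 0 to 39 when 1 library was removed, and near-identical histone copies can share reads. The histone list took 1.51% to 2.01% of the reads in FA and 1.90% to 2.80% in N2B27. It took 1.39% in the day 0 library of the FA course from 2iL and 2.13% in that of the N2B27 course. The day 0 library of the embryoid body course from 2iL had 1.97%. Late from 2iL (day 7), the share was 1.51% in FA and 2.01% in N2B27. From SL it was 1.67% in FA and 2.49% in N2B27 at day 5, and 2.01% and 1.90% at day 7. Whether the late gap was already present at day 0 was not tested.

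Several lists had few called genes, most of them at shares below or near those over all genes (9.35% higher and 9.42% lower). None of 21 glycolysis genes and none of 13 tested mitochondrial genes was called. Of 20 proliferation genes 2 were higher (10%), and of 44 tested protocadherins 3 were lower (6.82%). Of 18 genes of Cdk inhibitors and p53 targets 2 were higher (11.1%) and 1 was lower (5.56%). Of 12 surface ectoderm genes 1 was higher and 1 was lower (8.33% each). Of 13 neural crest and placode genes 2 were higher and 2 were lower (15.4% each, above the shares over all genes). Of 12 germline genes only Kit, a receptor also found on differentiating cells, was called, and it was lower in FA (26.8, 22.3 and 18.9 CPM against 65.4, 177, 104 and 195 CPM).

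Other lists held more calls, in part in both directions. Of 10 tested blood and endothelial genes, 4 were lower (40%, beside 9.42% of all genes) and 1 was higher. Of 20 Polycomb and DNA methylation enzymes, 5 were higher (25%) and 4 were lower (20%). None of these 9 enzyme calls held with each library left out, and the 5 higher ones fell to 0 with the block of starting medium and day. Of 23 epithelial genes, 5 were higher (21.7%, beside 9.35% of all genes) and 1 was lower. Cdh1, the epithelial cadherin, was at 217, 385 and 267 CPM in FA and at 67.4, 181, 141 and 256 CPM in N2B27 and did not pass the test (log2 0.89 ± 0.42 SE, edgeR adjusted p = 0.176). Cdh2, the neural cadherin, was at 126, 88.0 and 86.2 CPM against 284, 124, 152 and 70.7 CPM, and its log2 difference of -0.41 ± 0.41 SE (edgeR adjusted p = 0.518) turned to 0.14 in the day 7 libraries alone and to 0.11 without FA SL day 5. Epcam, an epithelial adhesion molecule, was at 95.3, 123 and 100 CPM against 19.9, 47.9, 44.5 and 69.9 CPM without overlap (log2 1.23 ± 0.35 SE, edgeR adjusted p = 0.0513). Epcam was called in 7 of 16 alternative fits, among them the block (0.0336) and the day 7 libraries alone (0.00786), with log2 differences of 0.72 to 1.48 over all 16. Of 22 cholesterol synthesis genes, 5 were higher (22.7%, beside 9.35% of all genes), by log2 differences of 0.34 to 0.63. Insig1, a sterol-sensing inhibitor of the pathway, was lower (log2 -1.30). Insig1 missed the threshold without FA SL day 7 or N2B27 2iL day 7 (edgeR adjusted p 0.0577 and 0.0550).

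Xist, the long non-coding RNA that coats the inactive X chromosome of female cells, was low in all 7 male libraries. On GRCm38 it lies at chrX:103460366-103483254 on the negative strand. Xist was at 0.292, 0.756 and 0.312 CPM in FA and at 2.35, 2.42, 1.19 and 1.41 CPM in N2B27, and the groups did not overlap. Its difference was 4.10-fold (log2 -2.03 ± 0.49 SE, edgeR adjusted p = 0.0329), and it was the single gene called of the 6 tested around the X inactivation centre. The call was lost without FA 2iL day 7, FA SL day 7, N2B27 2iL day 5, N2B27 2iL day 7 or N2B27 SL day 7 (edgeR adjusted p 0.0879, 0.112, 0.0538, 0.101 and 0.0612), and also with the block of starting medium and day (0.0811).

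To see when the groups parted, genes were followed from day 1 on a CPM scale shared by all 45 libraries. Nanog was alike at day 1 (249 and 192 CPM in FA and 254 and 181 CPM in N2B27, from 2iL and SL). At day 3 it was at 181 and 148 CPM in FA and at 49.3 and 50.7 CPM in N2B27. Lefty1 was already higher in FA at day 1, at 37.8 and 75.9 CPM against 3.44 and 11.5 CPM. In N2B27, Lefty1 rose to 136 CPM at day 2.5 from 2iL and fell to 3.42 CPM by day 5. Lama1 was at like levels at day 1 from 2iL (26.6 CPM in FA and 23.8 CPM in N2B27) and reached 4912 CPM at day 7 in N2B27, against 129 CPM in FA. From SL, Lama1 started higher, at 188 CPM in FA and 311 CPM in N2B27. Tnc stayed below 8 CPM until day 3 in both conditions and reached 540 and 343 CPM in FA at day 7. These courses have 1 library a point, so a single point has no replicate check.

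**Figure D4:**
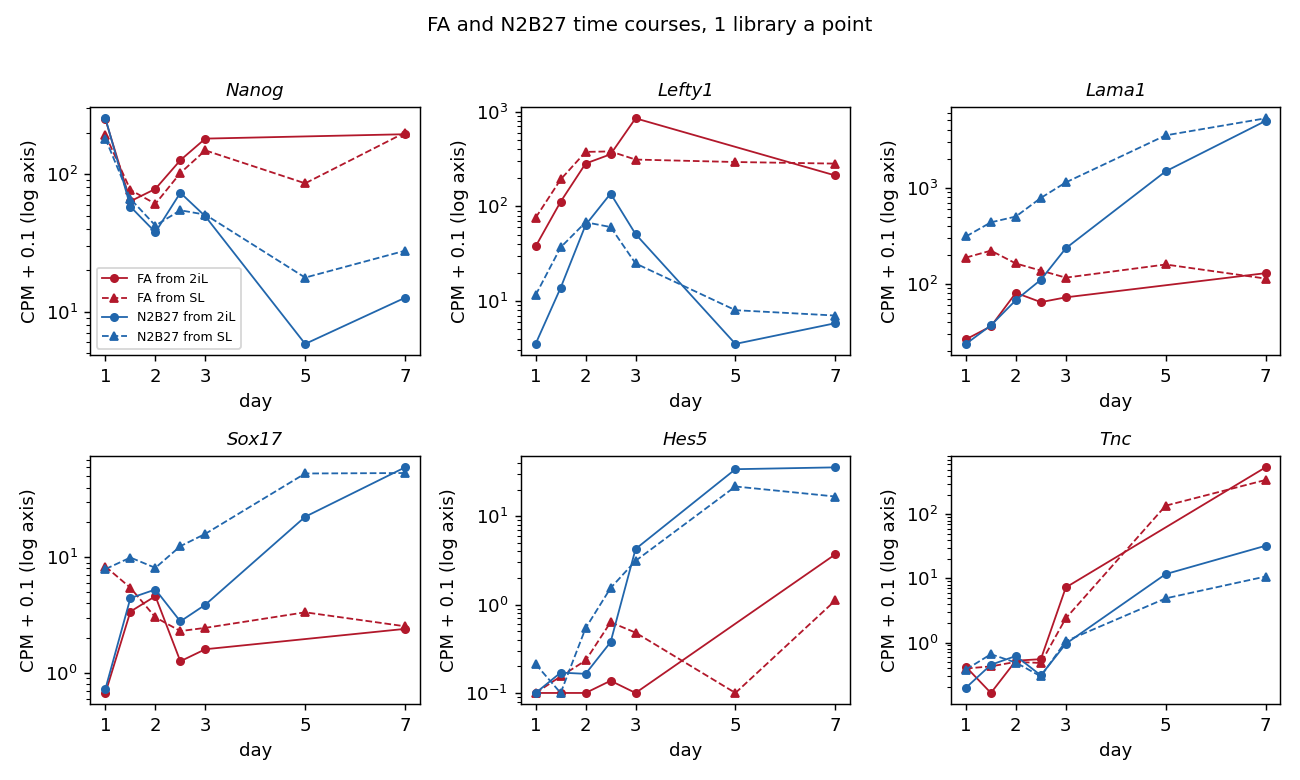
CPM + 0.1 (log axis, scaled over all 45 libraries) of 6 genes against day, in red for FA and blue for N2B27, with solid lines for cells from 2iL and dashed lines for cells from SL, 1 library a point. Lefty1 is apart from day 1, Nanog from about day 3, and Lama1, Sox17, Hes5 and Tnc are widely apart at days 5 and 7.

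Whether the late difference was the one already present in the middle of the courses was tested directly, as the change of the FA minus N2B27 difference from days 2.5 and 3 (8 libraries) to days 5 and 7. Of 15274 genes, 282 (1.85%) were called, 175 with a positive and 107 with a negative change. The smallest p-values belonged to Fkbp10, a collagen chaperone, whose log2 difference went from -0.03 to 2.03 (change 2.06 ± 0.21 SE, edgeR adjusted p = 0.0062). Bgn, Tcfl5, Pgm5 and Lgals1 followed, with changes of 3.61, 1.42, 4.96 and 2.34 (edgeR adjusted p = 0.00677 for each). In the Nodal pathway, Foxh1 went from 0.09 to 2.25, a change of 2.16 ± 0.28 SE (edgeR adjusted p = 0.00706). In the FGF response, Il17rd went from 0.29 to 2.72 (edgeR adjusted p = 0.0216), and Etv1 from 0.84 to 2.51 (0.0371). Wnt8a changed sign, from -2.11 to 2.36 (edgeR adjusted p = 0.0144). Among genes lower in FA, Fgfr3 went from -1.61 to -4.16 (edgeR adjusted p = 0.0257), Lifr from -0.77 to -2.90 (0.0211), Cdh5 from -1.18 to -5.04 (0.0323) and the ventral neural factor Nkx2-2 from 1.12 to -3.28 (0.0241).

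For other leading genes the change itself did not pass the test. Nanog went from 1.26 to 3.11 (edgeR adjusted p = 0.0727), Lefty1 from 2.90 to 5.45 (0.0936), Sox17 from -2.30 to -4.18 (0.249), Lama1 from -2.51 to -4.80 (0.221) and Hes5 from -3.29 to -4.43 (0.796). Nanog, Lefty1, Sox17 and Lama1 were past the threshold at days 2.5 and 3 as well (edgeR adjusted p 0.0349, 0.00903, 0.0286 and 0.0349). The count of 282 fell to 64 without FA SL day 7, to 95 without N2B27 2iL day 7, to 116 without N2B27 SL day 5 and to 143 without N2B27 SL day 7. It rose to 1019 without FA SL day 5 and to 501 without N2B27 2iL day 5.

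**Figure D5:**
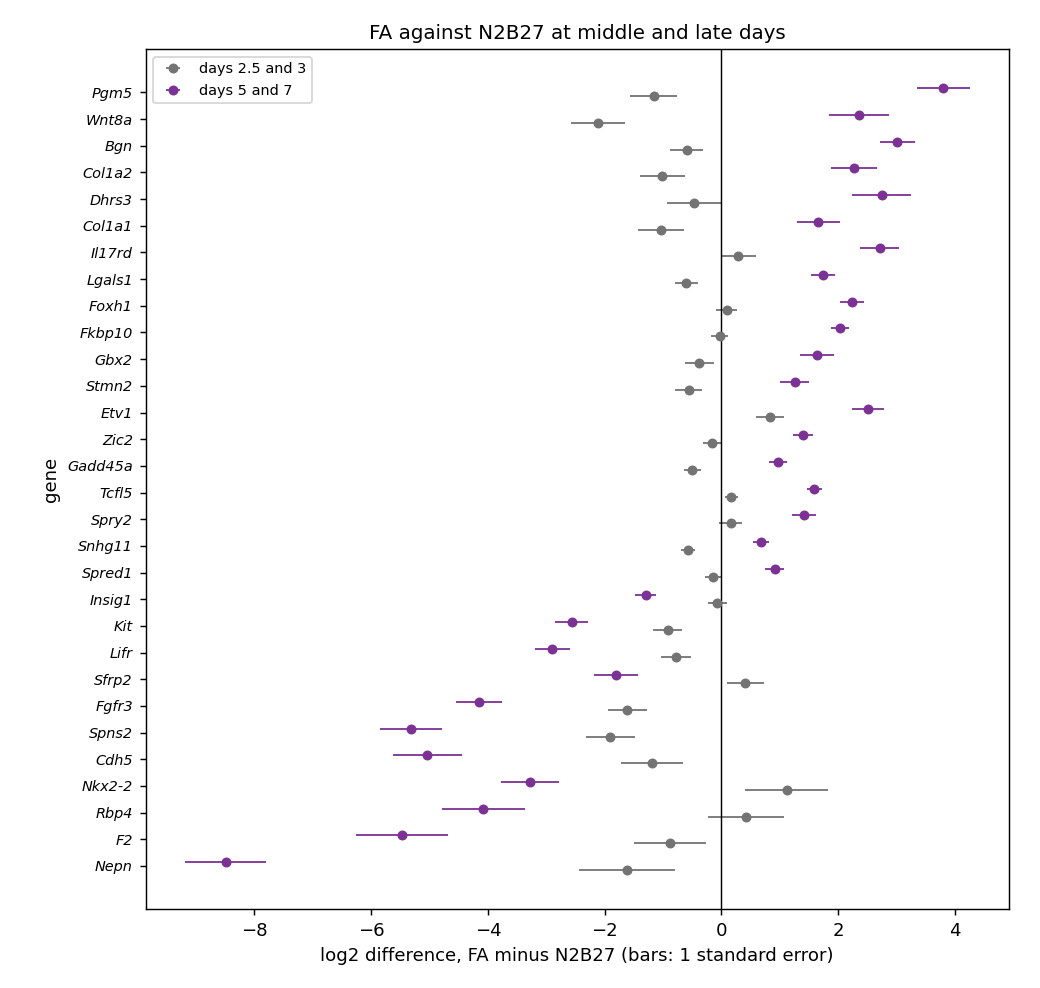
Log2 difference (FA minus N2B27, horizontal axis, bars of 1 standard error) at days 2.5 and 3 (grey) and at days 5 and 7 (purple) from the joint fit, for the 30 genes of the lists and the naming rule shown whose difference changed between these days. Genes with a gain in FA are at the top, led by Pgm5, and genes with a loss are at the bottom, down to Nepn, which changed by -6.88.

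The difference was also tested for dependence on the starting medium and on the day within the 7 libraries. By starting medium, 0 of 14610 genes (0%) were called by edgeR, with 480 at an unadjusted p under 0.05, and DESeq2's Wald test called 28. By day, edgeR called 0 of 14610 genes (0%), with 3009 at an unadjusted p under 0.05. DESeq2 called 806 genes by day, and edgeR called 226 without the filter on low counts. FA has 1 library from 2iL and 1 library of day 5, so these tests rest on a single library on one side, and they do not show that the media or days acted alike.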

How the data were processed

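The authors extracted total RNA, depleted ribosomal RNA, made strand-specific libraries (NextFlex Rapid Directional kit), trimmed the reads with TrimGalore, mapped them to GRCm38 (mm10) with TopHat2 guided by Ensembl gene models, and counted them per gene with featureCounts. The authors deposited these raw counts, 1 file a library, without normalization, and DESeq2 normalization by the authors is not part of them. From the counts, TMM factors, CPM and all tests were computed here with R 4.3.3 and edgeR 4.0.16, after the filterByExpr filter, and DESeq2 1.42.0 served as an alternative. The files hold 35372 genes, of which 34599 (97.8%) were found in the GRCm38 annotation used for coordinates. Total counts ranged from 13577463 to 19031786 per library, so 3 reads correspond to 0.158 to 0.221 CPM.

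The main fit was edgeR's quasi-likelihood test of FA against N2B27 with day as a covariate over the 7 libraries, with p-values adjusted by the Benjamini-Hochberg method over all tested genes and a threshold of 0.05. Interactions with the middle days, the starting medium and the day were fitted in the same way. The model code was tested on simulated counts first. Genes were named by rule: fixed marker genes, up to 4 genes with the largest difference of each list (adjusted p under 0.05, no overlap, mean of at least 1 CPM in the higher group), the 12 largest increases and the 12 largest decreases (mean of at least 5 CPM), and the 5 smallest p-values of each interaction. Other list members in the text (such as Foxh1, Il17rd, Gata4, Cxcr4, Irx3 and Hey1) were picked after their values were seen. The libraries and the gene lists were chosen with earlier results of these data known, so a list is described by its counts and median and was not tested as a set. Results of some genes that met the rule are not reported here.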

Additional observations from a re-analysis of the deposited data

Results flagged for a closer look

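A library of the 4 N2B27 libraries lay apart from the other 3 for 5 of the 179 genes examined, by Dixon's ratio of the gap to the range. The N2B27 library from 2iL at day 5 was apart for the naive factor Tbx3 (11.6 CPM, lower), the homeobox gene Msx2 (4.87 CPM, lower), the mevalonate pathway enzyme gene Pmvk (29.6 CPM, lower) and the matrix gene Vit (12.5 CPM, higher). The N2B27 library from 2iL at day 7 was apart for Fgfr2 (101 CPM, higher). Chance flags about 1 in 20 groups.

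The FA minus N2B27 difference changed between days 2.5 and 3 and days 5 and 7, by edgeR's test of the interaction, for 30 of these genes. Positive log2 changes among signalling and pluripotency genes were 1.57 for Zic2, 2.16 for Foxh1, 2.43 for Il17rd, 1.26 for Spry2, 1.05 for Spred1, 1.68 for Etv1, 2.02 for Gbx2, 4.47 for Wnt8a and 3.23 for Dhrs3. Those of matrix and related genes were 3.29 for Col1a2, 2.70 for Col1a1, 2.06 for Fkbp10, 3.61 for Bgn, 2.34 for Lgals1 and 4.96 for Pgm5. Further positive changes were 1.82 for Stmn2, 1.47 for Gadd45a, 1.25 for Snhg11 and 1.42 for Tcfl5. Negative log2 changes were -2.13 for Lifr, -2.54 for Fgfr3, -4.50 for Rbp4, -3.85 for Cdh5, -1.65 for Kit, -1.22 for Insig1, -6.88 for Nepn, -4.58 for F2, -3.41 for Spns2, -4.40 for Nkx2-2 and -2.21 for Sfrp2.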

How the results depend on the processing

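The main count of 2742 genes fell to 207 in the SL libraries alone and rose to 4617 in the day 7 libraries alone, and it ranged from 585 to 3226 when single libraries were left out. It was 2758 with RLE factors, 2712 without the filter on low counts, 2183 without the day, 3054 with day and starting medium, 2067 with the replicate block, 2960 with the 4 embryoid body libraries of these days in the estimate of the spread and 3755 by DESeq2. The block pairs libraries of the same starting medium and day, which the labels give, and the N2B27 library from 2iL at day 5 has no partner in it. The late minus middle count of 282 was 828 with day and starting medium, 890 by DESeq2, 323 without the filter and 64 to 1019 with single libraries left out. By starting medium the count of 0 became 28 by DESeq2, and by day it became 226 without the filter and 806 by DESeq2. All 170 genes examined one by one and called kept their direction in every alternative that tested them. Of these, 119 lost the call in the SL libraries alone, 88 without N2B27 2iL day 7, 75 without FA SL day 7 and 20 with the replicate block. The log2 difference of Sox1 (-0.26) was 0.76 in the day 7 libraries and -0.89 to 0.74 with single libraries left out, and that of Cdh2 (-0.41) was 0.14 and -0.77 to 0.11, and both were positive without FA SL day 5. Why these values moved was not tested, beyond the smaller number of libraries in those fits.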
